A study of Homo sapiens with 16 samples.

Results

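DNMT3B binding in pterostilbene (PTS)-treated cells was compared with that in vehicle-treated cells at the regions where the deposited peak lists of both treatments hold a peak. A region was formed from all peaks with a summit pileup of 13 or more that share at least 1 base, and it was called a pair when it held a peak of each list. The depositors describe the vehicle list as enriched in control and the PTS list as enriched in PTS. The pileups set neither treatment against the other, and 63.1% of the PTS peaks of 13 or more lay in a pair, so each list was used here as the peaks of its own treatment. The pileup is the number of pooled, extended fragments that cover the summit. There were 2400 pairs among 16727 regions, which were built from 15304 of the 15855 vehicle peaks and 4322 of the 4326 PTS peaks. The whole series, which also covers OCT1, lists 118439 peaks. DNMT3B-bound DNA came from MCF10CA1a cells, an invasive human breast cancer line of the MCF10A series, after 9 days with PTS at 7 µM or with the ethanol vehicle. Each treatment had 3 biological replicates and 1 input library, and a single cell line was studied. The replicates are pooled in the lists, so neither an error between replicates nor a test over them could be had, and the depth of single libraries is not given in them. Intervals of ratios are exact 95% intervals and cover counting error only.

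DNMT3B is, with DNMT3A, a de novo DNA methyltransferase that places methyl groups on cytosines of CpG dinucleotides. It is known for methylating satellite repeats next to centromeres, which lose methylation in ICF syndrome, where the gene is mutated, and for binding the bodies of transcribed genes through a domain that recognizes H3K36me3. PTS is a stilbenoid polyphenol of blueberries and a dimethoxy analog of resveratrol.

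The sequences at the summits of 6 regions (GRCh37/hg19) are shown because the results turn on them. The first lies in the repeat next to the centromere of chromosome 6, where DNMT3B pileup was highest, and its capitals mark a match to the binding motif of the centromere protein CENP-B, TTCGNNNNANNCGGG. In the next, from the chromosome 10 region listed with LOC441666, capitals mark CATTC or its reverse complement, the unit of human satellites II and III. In all others capitals mark CpG. The intron of KIAA1671 and the region listed with LINC01163 had intervals of the ratio below 1, the intron of CHST3 had among the highest ratios, and LINC00910 holds an enhancer that the study examined further.
LINC00680 region, chr6:58778733-58779032, plus strand: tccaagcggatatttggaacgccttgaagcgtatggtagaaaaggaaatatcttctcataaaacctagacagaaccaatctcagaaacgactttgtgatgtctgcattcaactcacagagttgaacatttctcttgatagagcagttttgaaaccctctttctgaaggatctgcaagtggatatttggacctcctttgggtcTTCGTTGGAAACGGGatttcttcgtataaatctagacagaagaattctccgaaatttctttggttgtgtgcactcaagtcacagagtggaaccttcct
LOC441666 region, chr10:42385178-42385297, plus strand: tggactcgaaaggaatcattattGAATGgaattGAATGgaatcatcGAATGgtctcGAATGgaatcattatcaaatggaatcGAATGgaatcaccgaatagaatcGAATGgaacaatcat
KIAA1671, chr22:25489615-25489814, plus strand: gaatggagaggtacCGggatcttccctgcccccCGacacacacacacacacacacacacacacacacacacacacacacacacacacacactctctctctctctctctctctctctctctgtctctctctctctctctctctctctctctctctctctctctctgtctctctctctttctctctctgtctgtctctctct
LINC01163 region, chr10:130262721-130262920, plus strand: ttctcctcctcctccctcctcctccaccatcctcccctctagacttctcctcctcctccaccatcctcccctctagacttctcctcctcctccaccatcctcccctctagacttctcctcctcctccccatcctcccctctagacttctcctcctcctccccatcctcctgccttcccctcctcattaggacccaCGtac
CHST3, chr10:73756414-73756613, plus strand: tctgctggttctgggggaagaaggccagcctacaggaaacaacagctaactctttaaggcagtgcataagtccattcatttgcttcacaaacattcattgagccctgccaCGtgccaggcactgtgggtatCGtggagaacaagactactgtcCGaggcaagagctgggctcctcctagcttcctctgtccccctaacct
LINC00910, chr17:41466103-41466302, plus strand: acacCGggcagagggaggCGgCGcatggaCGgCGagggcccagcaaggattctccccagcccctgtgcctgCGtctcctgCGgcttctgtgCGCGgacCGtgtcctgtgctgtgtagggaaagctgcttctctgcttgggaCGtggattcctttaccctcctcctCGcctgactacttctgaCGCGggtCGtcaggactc
The LINC00680 window holds 1 copy of the CENP-B motif in 300 bp, and the LOC441666 window 6 satellite units in 120 bp. The KIAA1671 window runs through long dinucleotide repeats, with 2 CpG in 200 bp, and the LINC01163 window through repeated copies of a pyrimidine-rich unit, with 1 CpG. The LINC00910 window is rich in CpG, with 15, and the CHST3 window has 3.

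The lists of both treatments differed most in the number of their low peaks. Pileups of 40 or more were reached by 380 vehicle peaks and 351 PTS peaks, and pileups of 25 or more by 1081 and 981, respectively. At a minimum of 13 the vehicle list held 15304 peaks and the PTS list 4322. The lowest pileup past this minimum was 13 in the vehicle list and 13.7 in the PTS list, and the most frequent pileup was 15 (2864 peaks) and 16.4 (519 peaks). PTS pileups are whole reads times 0.913, a factor read from the spacing of the deposited values. The sources used here do not say what it scales to, and the ratios below keep it unless whole reads are named. Whether the limit of the peak calling or the binding set the smaller number of low PTS peaks cannot be told apart in these lists, and this touches every count of regions found in vehicle alone.

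**Figure D1:**
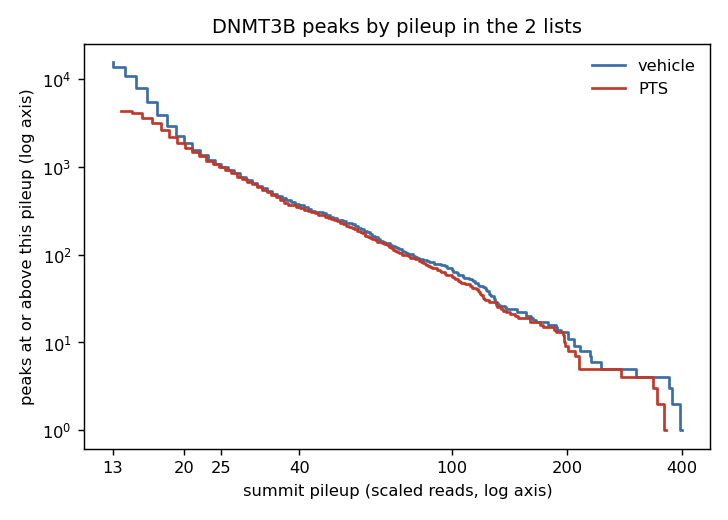
Number of DNMT3B peaks (vertical, log axis) at or above each summit pileup in scaled reads (horizontal, log axis), for the vehicle list (blue) and the PTS list (red). The lines lie closest near a pileup of 30 (702 and 665 peaks) and part most below 20, reaching 15304 and 4322 peaks at 13, and there are 70 and 58 peaks at 100 and 13 and 9 at 200.

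Higher peaks were nearly always found in both treatments. Of the PTS peaks 63.1% (2728 of 4322, Wilson 95% interval 61.7 to 64.5) lay in a pair, and of the vehicle peaks 16.8% (2571 of 15304, 16.2 to 17.4). The share rose with the level. Of the vehicle peaks with a pileup of 13 to under 16, 5.08% were paired, against 88.4% at 25 to under 30 and 100% at 40 or more. For PTS peaks these shares were 33.7%, 98.7% and 100%. In the 2064 pairs that consist of 1 peak of each list, the summits lay a median of 51 bp apart, and the PTS peak was shorter, with a median length of 325 bp against 372.5 bp.

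Regions without a partner were low. The 12733 regions found in vehicle alone reached a pileup of at most 34, and the 1594 found in PTS alone at most 31.05. The highest in vehicle alone were at C10orf53 and near the pseudogene ROCK1P1, with a pileup of 34 each, in an exon of CASC3, a component of the exon junction complex, with 33, and near the NPIPA family members NPIPA5 and NPIPA8, with 32 each. The CASC3 peak (chr17:38296486-38296816) is in a promoter state. The highest in PTS alone were near FCGR2A, an Fc receptor, with 31.05, near LOC102723526 with 29.22, on an unlocalized sequence of chromosome 9 with 26.48, and in introns of the forkhead factor gene FOXP1 and the histone methyltransferase gene KMT2C, with 25.57 each. The lists begin at 11 for vehicle and 12.8 for PTS, so the level in the other treatment at these places is not known.

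At the pairs, DNMT3B pileup was close to equal in both treatments. The median ratio of PTS over vehicle was 0.987 (quartiles 0.889 and 1.13), with PTS higher in 1147 pairs (47.8%), vehicle higher in 1248 (52%) and 5 equal. The ratio was 1.5 or more in 42 pairs (1.75%) and 0.667 or less in 35 (1.46%), and 2323 pairs (96.8%) lay between. Its interval lay above 1 in 1 pair (0.0417%) and below 1 in 3 pairs (0.125%). These shares hold for pairs only, since a region below the minimum in 1 treatment is not a pair. The minimum also bounds how far low pairs can differ. At a mean pileup of 13 to under 20, 28 pairs reached 1.5 and 2 lay at 0.667 or less. The scaling moves every ratio by 0.13 on the log2 scale. Counted as whole reads, PTS was higher in 1563 pairs (65.1%) and vehicle in 636, the median was 1.08, and 133 pairs reached 1.5 against 14 at 0.667 or less. The log2 pileups of the treatments had a Pearson r of 0.937 across the 2400 pairs, which share cells, copy number and mappability.

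**Figure D2:**
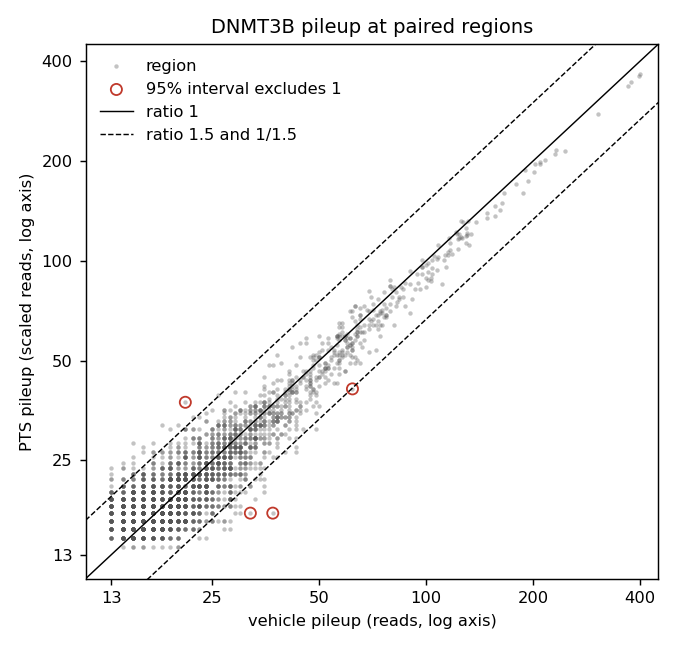
PTS pileup in scaled reads (vertical, log axis) against vehicle pileup in reads (horizontal, log axis) at the 2400 paired regions, 1 point each, with lines at ratios of 1, 1.5 and 0.667. Nearly all points (2323) lie between the dashed lines, and the 4 circled regions are those whose 95% interval excludes 1.

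The ratio fell as the level rose. Among the 993 pairs with a mean pileup of both treatments from 13 to under 20 the median was 1.07 (quartiles 0.913 and 1.20), in the 503 pairs of 20 to under 25 it was 0.989, in the 562 of 25 to under 40 it was 0.948, in the 284 of 40 to under 100 it was 0.944, and in the 58 of 100 or more it was 0.928. The minimum of 13 is 13 reads in vehicle and, as the first level past it, 13.7 scaled reads in PTS. Its part in the higher ratios of low pairs was not tested. Values are therefore given also for the 904 pairs with a mean of 25 or more, whose median was 0.947 (quartiles 0.879 and 1.05), with 5 pairs at 1.5 or more and 15 at 0.667 or less. The standard deviation of the log2 ratio was 0.27 over all pairs, below the 0.42 that the read counts alone give, and it was below the counting value at every level.

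**Figure D3:**
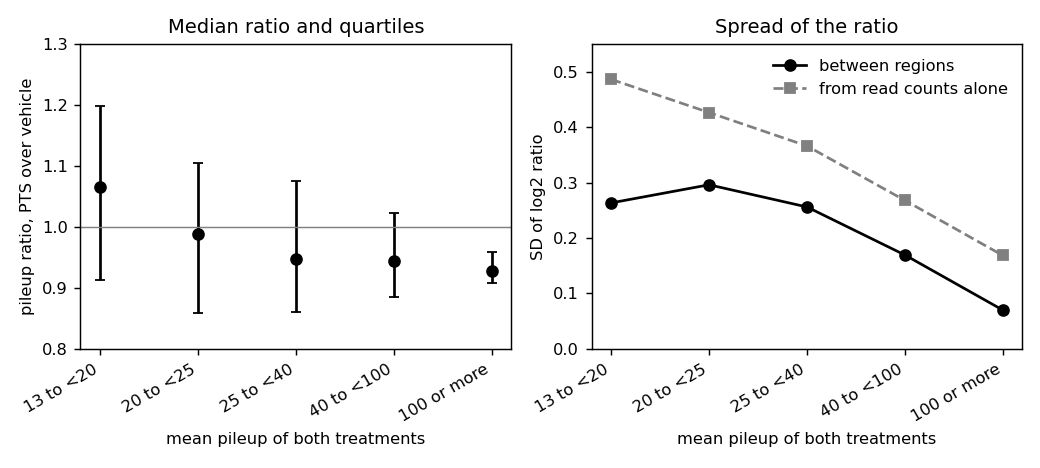
Left, median ratio of DNMT3B pileup, PTS over vehicle (points, bars to the quartiles), against the mean pileup of both treatments. Right, SD of the log2 ratio between regions (solid) and the SD expected from the read counts alone (dashed). The median falls from 1.07 to 0.928, and the solid line stays below the dashed one.

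The highest pileups were at repeats next to centromeres and at ribosomal DNA. At chr6:58776079-58779525, the region of the first sequence above, pileup was 400 in vehicle and 364.32 in PTS (ratio 0.911, 95% interval 0.791 to 1.05). At chr1:121482650-121485570 it was 396 and 359.76, and at chr7:61967072-61971383 it was 369 and 336.02. The sequence that holds the ribosomal RNA genes RNA45S5 and RNA28S5 had 377 and 345.15, and mitochondrial DNA had 216 and 201.79. With fragments of 200 bp, 1 read per position and strand gives a pileup of at most 400. The highest values, 400 reads in vehicle and 399 in PTS before scaling, lay at or next to this number, and a ratio between values that both reach it is 0.913. Away from the limit, the chromosome 19 repeat at chr19:27731800-27733587 had 304 and 277.58, and 3 regions listed with LOC441666 on chromosome 10 had 245 and 214.58, 232 and 215.49, and 230 and 210.01. The chromosome 16 repeat at chr16:46402852-46404008 had 209 and 198.14. None of the 58 pairs with a mean of 100 or more reached either 1.5-fold limit. Pileup at the highest of these places was not particular to DNMT3B. In the OCT1 ChIP of the same cells it was 399 in vehicle and 395.83 in PTS at the chromosome 6 region. At the chromosome 1 region OCT1 had 390 and 389.89, at the chromosome 7 region 367 and 364.16, and at the ribosomal sequence 393 and 381.97.

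With the scaled pileups, the 95% interval of the ratio lay below 1 at 3 places and above 1 at 1. In an intron of KIAA1671 (chr22:25489585-25489903, a transcription state) pileup was 32 in vehicle and 17.35 in PTS, a ratio of 0.542 (95% interval 0.290 to 0.986). The summit is the dinucleotide repeat printed above. In the repetitive-state region 146640 bp from the long noncoding RNA gene LINC01163 (chr10:130262629-130263006) pileup was 62 and 41.09, a ratio of 0.663 (0.441 to 0.989). On an unlocalized sequence of chromosome 7 the region listed with LOC389831 had 37 and 17.35, the lowest ratio of all pairs at 0.469 (0.255 to 0.837). The pair with its interval above 1 was a repetitive-state region 31826 bp from the pseudogene REXO1L2P (chr8:86755097-86755419), with 21 in vehicle and 37.44 in PTS (ratio 1.78, 1.03 to 3.18). Its summit window matched 10 other places of the genome nearly identically, and for the windows at KIAA1671 and LINC01163 the search returned 0. The search also returned 0 for the chromosome 6 and chromosome 1 repeats of highest pileup, so a 0 does not show that a place is unique. These calls depend on the scaling. Counted as whole reads, the intervals at KIAA1671 (0.318 to 1.08) and LINC01163 (0.483 to 1.08) held 1, that at LOC389831 stayed below 1 (0.279 to 0.916) and that at REXO1L2P above (1.13 to 3.48), and regions near C1QTNF3-AMACR (1.08 to 4.12) and in PDE4DIP (1.07 to 3.65) were added above 1. With 2400 intervals of 95%, the 4 regions are fewer than the nominal level would leave out. This is no test, since the ratios spread less than the read counts give at every level. The pairing also leaves out regions below the minimum in either treatment.

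The other high ratios were at low pileups. The highest was 1.89 (0.988 to 3.76) near C1QTNF3-AMACR, with 15 in vehicle and 28.31 in PTS, where the summit has 15 near-identical copies. In an intron of CHST3, a chondroitin sulfotransferase, a weak enhancer (chr10:73756455-73756852) had 13 and 23.74 (ratio 1.83, 0.905 to 3.87). In introns of PDE4DIP, the gene of the centrosome and Golgi protein myomegalin, 3 regions had 18 and 31.96, 16 and 27.39, and 14 and 23.74. In an intron of MYO15A, an unconventional myosin of the inner ear, pileup was 13 and 22.83, near the pseudogene USP32P1 14 and 24.65, near the complexin gene CPLX2 15 and 25.57, and near LOC286297 14 and 23.74. With scaled pileups each of these intervals held 1.

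The other low ratios were at somewhat higher pileups. In an intron of SH3RF3, an SH3-domain ubiquitin ligase, pileup was 28 in vehicle and 15.52 in PTS (ratio 0.554, 0.285 to 1.05). In an intron of the adhesion receptor gene ADGRA1 the values were 35 and 20.09 (0.574, 0.321 to 1.01), and in the pseudogene CROCCP2 27 and 15.52. At BAGE2, a pseudogene of the B melanoma antigen family on chromosome 21, 2 regions had 30 and 17.35 and 33 and 19.17. The region near LINC01115, in a promoter state, had 28 and 16.44, that near FAM30C 29 and 17.35, and that near the humanin-like gene MTRNR2L1 35 and 21. With scaled pileups all these intervals held 1.

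Across the chromatin states of normal mammary epithelial cells (HMEC), not of the cells studied, the paired share differed more than the ratio. A region was counted in each state listed for it. Of the 1227 regions in repetitive states 60.4% were paired, and of the 1017 without a state 58.0%, against 8.13% of the 14652 regions in any of states 1 to 13. Polycomb-repressed regions were paired in 15.7%, strong enhancers in 12.5%, transcription states in 11.2%, promoters in 9.36% and heterochromatin in 5.32%. Repetitive states made up 30.9% of the pairs, but 3.22% of the regions in vehicle alone and 4.77% of those in PTS alone. Heterochromatin made up 15.2%, 45.9% and 39.6%, respectively. The levels moved with these shares, since the median vehicle pileup of pairs was 28 in repetitive states and 18 in states 1 to 13.

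The median ratio was 1.02 (quartiles 0.913 and 1.16) in the 1191 pairs of states 1 to 13, 0.964 (0.883 and 1.08) in the 741 pairs of repetitive states and 0.965 (0.875 and 1.11) in the 590 without a state. With a mean pileup of 25 or more the medians were 0.944 (225 pairs), 0.948 (441) and 0.947 (305). Within narrower levels, the medians of states 1 to 13, repetitive states and no state were 1.07 (755 pairs), 1.07 (128) and 1.02 (129) at a mean of 13 to under 20, and 0.943 (168), 0.966 (244) and 0.961 (197) at 25 to under 40. At 40 to under 100 they were 0.939 (55), 0.954 (154) and 0.944 (93), and the quartiles of the classes overlapped at each of these levels. Among single classes, the median over all pairs lay between 0.957 in insulators (31 pairs) and 1.04 in Polycomb-repressed regions (84). Strong enhancers had 1.01 (179), weak enhancers 1.03 (169), transcription states 1.03 (502), heterochromatin 1.02 (364) and promoters 0.991 (74). At a mean of 25 or more it was 0.947 in strong enhancers (36 pairs), 0.913 in weak enhancers (28) and 1.02 in promoters (18), with quartiles of 0.913 and 1.06 in promoters, which overlap those of the other classes. Pairs of 1.5 or more numbered 4 in strong and 4 in weak enhancers, which is 2.23% and 2.37% beside 1.75% of all pairs. Pairs of 0.667 or less numbered 0 in both, beside 1.46%. In repetitive states they numbered 13 (1.75%) and 14 (1.89%). The median vehicle pileup was 18 in strong and in weak enhancers. At that level the lowest PTS pileup of 13.7 keeps the ratio above 0.667, so the minimum had a part in the 0 and it is no result about enhancers.

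**Figure D4:**
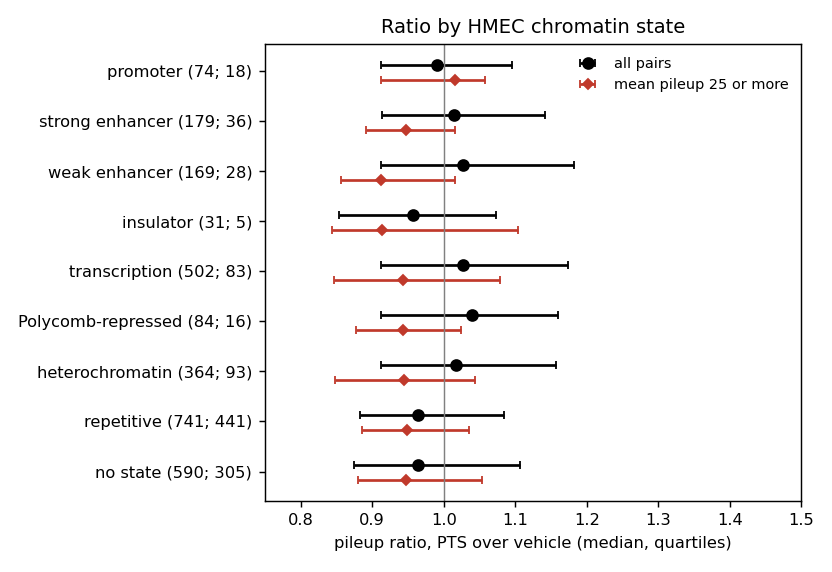
Median ratio of DNMT3B pileup, PTS over vehicle, with quartiles, by class of HMEC chromatin state, for all pairs (black) and for pairs with a mean pileup of 25 or more (red). Brackets give the number of pairs in each. The black medians of repetitive states (0.964) and of regions without a state (0.965) lie below those of most other classes, and the red medians of all classes but promoters lie between 0.913 and 0.948, while promoters lie at 1.02.

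The highest pairs of the regulatory classes had like values in both treatments. In strong enhancers they were at the long noncoding RNA gene DANT2 (62 in vehicle, 53.87 in PTS) and 11683 bp from TNNT2, cardiac troponin T (58 and 51.13). In weak enhancers they were at LINC00854 (79 and 84) and in an intron of ZP4, a zona pellucida glycoprotein (58 and 52.96). In promoters they were at LINC01410 (35 and 37.44) and in an intron of the zinc finger gene ZNF595 (40 and 31.96), and in transcription states in an intron of LSG1, a GTPase of ribosome assembly (93 and 82.18), and near LINC00854 (79 and 87.66). In insulators they were at FLJ36000 (38 and 34.7) and near LOC654342 (40 and 33.78), and in Polycomb-repressed regions again near LOC654342 (40 and 36.52) and at BAGE2 (41 and 39.26). In heterochromatin they were near LOC101927237 (108 and 102.27) and near EMBP1 (105 and 103.18). Many of these regions also carry a repetitive state, namely those of LINC00854, ZNF595, BAGE2, LOC101927237 and EMBP1 and the Polycomb-repressed one near LOC654342. Near-identical copies were most frequent at EMBP1 (68) and DANT2 (14). The summit windows at TNNT2, ZP4, LSG1 and FLJ36000 held a short tandem repeat, as defined below.

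By distance to genes, the median ratio was 1.02 in the 783 pairs inside genes, 1.00 in the 111 within 3 kb, 1.02 in the 129 at 3 to 10 kb, 0.993 in the 439 at 10 to 50 kb and 0.968 in the 655 over 50 kb away. The 283 pairs with no gene given had 0.956. At a mean of 25 or more it was 0.948 inside genes (172 pairs), 0.924 within 3 kb (34), 0.981 at 3 to 10 kb (32), 0.948 at 10 to 50 kb (142), 0.941 over 50 kb away (361) and 0.947 with no gene given (163). Pairs lay inside genes in 32.6% and over 50 kb away in 27.3%, while regions in vehicle alone lay inside genes in 52.2%.

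Low regions crowded in a few parts of the genome. The 7 chromosomes with the most regions, 1, 3, 5, 8, 9, 10 and 17, held 83.1% of the regions in vehicle alone and 86.6% of those in PTS alone. They held 45.0% of the pairs. Pairs are 14.3% of all regions, so a choice by number of regions by itself favors unpaired ones, and these shares are no test. The windows of 5 Mb with the most regions, 0 to 5 Mb of chromosome 9 and 70 to 75 Mb of chromosome 10, held 973 and 912, of which 51 and 134 were pairs. Among windows picked for their many pairs, 81.4% of the 59 regions at 90 to 95 Mb of chromosome 2 were pairs, and 69.3% of the 88 at 45 to 50 Mb of chromosome 4. In the crowded loci the median ratio was 1.07 at 8q24 (74 pairs), 1.03 at 9p24 (82), 1.08 at 10q22 (134) and 1.07 at 17p11 (125). The median mean pileup of their pairs was 16.2 to 17.2, and 3 pairs in all had a mean of 25 or more. Copy number was not measured here, and its part was not tested.

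The paired regions were listed with 511 genes, of which 103 had 5 or more. Genes that share all their pairs counted once, these were 101 sets, with a median of their medians of 1.00, 53 above 1 and 48 below. As whole reads 92 lay above 1, 2 below and 7 at 1. With scaled pileups 0 genes had a median of 1.5 or more or of 0.667 or less. PDE4DIP had the most pairs, 94, with ratios from 0.658 to 1.78 and a median of 0.996. BAGE2 had 64 (median 1.00), CWH43, a gene of lipid anchor remodelling, 61 (0.994), LOC389831 56 (0.991), LOC100505874 51 (0.970), TPTE, a phosphatase gene of the testis, 47 (0.970), LOC283788 43 (0.913), PRIM2, the large subunit of DNA primase, 43 (1.01), LOC100507412 41 (1.02) and LOC105379514 39 (1.01). Regions of a gene lie near each other and are not replicates. None of the CWH43 or TPTE pairs lies inside the gene.

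**Figure D5:**
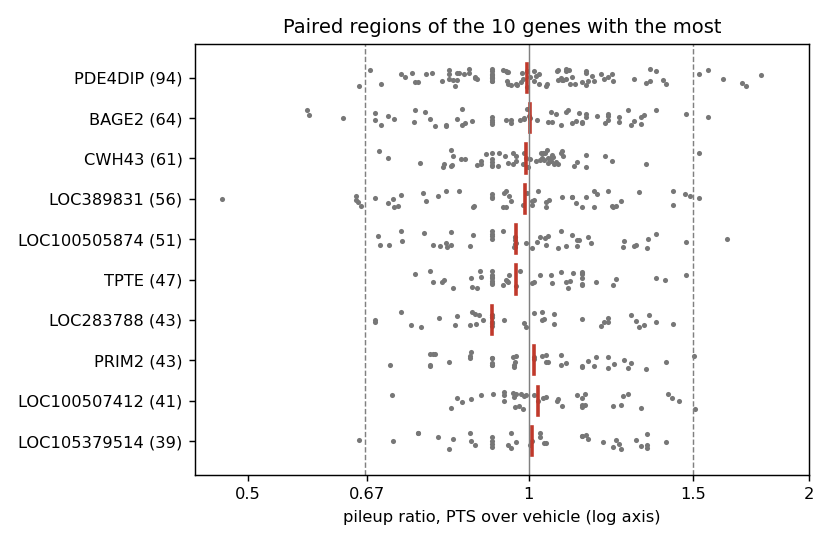
Ratio of DNMT3B pileup, PTS over vehicle (horizontal, log axis), at each paired region of the 10 genes with the most pairs (number in brackets), with the median in red and dashed lines at 1.5 and 0.667. The medians lie between 0.913 (LOC283788) and 1.02 (LOC100507412), and the points of each gene lie on both sides of 1.

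The highest gene medians were 1.42 at LOC388692 (5 pairs), 1.28 at RPN1 and 1.24 at ALKBH5. RPN1, a subunit of the oligosaccharyltransferase, had 6 pairs, all higher in PTS, with ratios from 1.02 to 1.44. ALKBH5, an RNA demethylase, had 5, all higher in PTS, with ratios from 1.17 to 1.46. Their means lay below 20, where PTS was higher in 61.2% of all 993 pairs of 13 or more, and none of the RPN1 pairs lies inside the gene. All pairs of LOC388692, RPN1 and ALKBH5 were below a mean of 25, as were those of SPOCK2, a proteoglycan gene (24 pairs, median 1.16), RAI1, a transcriptional regulator (25, 1.11), and CDH23, the cadherin of inner ear tip links (26, 1.09). RPN1, ALKBH5 and LOC388692 are named for their values, which were seen first. The lowest median was 0.859 at CACNA1B, a neuronal calcium channel subunit (5 pairs, 0.730 to 1.11), which shares its regions with LOC100133077.

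Of 25 genes named in the study's text, 24 had a region and 21 a pair. Their 81 pairs had a median of 1.01, with PTS higher in 43 and vehicle in 38. Of these pairs 36 are those of PVT1, and the other 45 had a median of 0.961. MIR4477A and MIR4477B share their pairs, as do ZP4 and LOC100130331, so the 21 genes form 19 distinct sets. Of these, 13 had a median below 1 (68.4%, beside 50.6% of the 496 sets of all genes with a pair) and 6 above. The scaling sets this split, since as whole reads 7 lay below 1 (36.8%, beside 22.6%), 9 above and 3 at 1. In the list, 1 pair (1.23%) reached 1.5 against 1.75% of all pairs. The list mixes genes for which the study reports increased DNMT3B peaks with PTS, among them PITPNC1 and LINC00910, with genes it reports with reduced peaks (CHRDL1, NOX5 and SALL3). NOX5 and SALL3 had no pair, so among the 19 sets CHRDL1 (1.10) alone is a gene of reduced peaks. The other sets are genes that the study reports with increased peaks. Most of their medians lay below 1 with scaled pileups, but not as whole reads. The study called differential peaks with the bdgdiff function of MACS2, which is another measure than the pileup ratio used here. At the PITPNC1 enhancer, in an intron of this lipid transfer protein gene, pileup was 47 in vehicle and 42.92 in PTS (0.913, 95% interval 0.596 to 1.40). At the LINC00910 enhancer, in an exon of the noncoding RNA gene, it was 52 and 49.31 (0.948, 0.636 to 1.42). The scaling sets the direction at both enhancers. As whole reads PITPNC1 had 47 in each treatment, and LINC00910 52 in vehicle and 54 in PTS. PVT1, the noncoding RNA gene next to MYC, had 36 pairs among 242 regions, with a median of 1.03. SREBF1, a regulator of lipid synthesis, had 7 pairs (1.06) and NOTCH2NL, a Notch2-related gene, 7 (0.961). The pannexin gene PANX1 had 1 pair (36 and 40.18), which lies 55457 bp away and has 16 near-identical copies. The kinase gene JAK2 had 1 pair (18 and 15.52) at 26596 bp, beside 37 regions in vehicle alone and 3 in PTS alone. The homeobox gene CUX1 had 1 (28 and 25.57) at 11284 bp. The kinase gene NLK had 1 (33 and 28.31) and the BMP antagonist gene CHRDL1 1 (29 and 31.96), both inside the gene. The Notch coactivator gene MAML2, the oxidase gene NOX5 and the zinc finger gene SALL3 had regions in vehicle alone, where 76.1% of all regions lay. SMARCA4, which the study lists among genes whose enhancers gained DNMT3B with PTS, had no region in either treatment.

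Of 10 calcium channel and transport genes, 5 had a region and 4 a pair, and their 8 pairs had a median of 0.846, with vehicle higher in 6, beside 52% of all pairs. As whole reads vehicle was higher in 5 of the 8, beside 26.5% of all pairs, and CACNA2D1 was higher in PTS. Of the 8 pairs 5 are those of CACNA1B, and none reached either limit, which 1.75% and 1.46% of all pairs did. The cardiac release channel RYR2 had 33 and 27.39, the subunit CACNA2D1 32 and 31.05, and CACNA1C 65 and 49.31 (0.759, 0.519 to 1.11). Of 10 long adhesion and neuronal genes, 8 had a region and 3 a pair (28 pairs, median 1.08). These were CDH23, with 26 of the 28 pairs, the cadherin gene CDH4 (31 and 25.57) and CSMD1 (32 and 27.39), while the phosphatase gene PTPRD had 114 regions in vehicle alone and 6 in PTS alone. Of 12 breast cancer genes 3 had a pair, namely KMT2C with 14 (median 0.959), MYC with 3 (1.03) and HRAS with 1 (14 and 16.44). Of 12 genes of the DNA methylation machinery 3 had a region, TET3, HELLS and SETD2, each in vehicle alone, and so had 1 of 10 germline genes silenced by methylation, MAEL. Of all 16727 regions 76.1% were in vehicle alone. Of 8 breast epithelial markers KRT8 and TP63 had regions and none a pair.

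Pairs differed from unpaired regions in the sequence around the summit. Pairs are also the higher regions, and levels were not matched, so pairing and level cannot be told apart in this contrast. In 300 bp, 2 adjacent CATTC units on either strand were found in 6.89% of 2396 pairs, 0.731% of the regions in vehicle alone and 1.44% of those in PTS alone. The CENP-B motif on either strand was found in 4.34%, 0.149% and 0.188%, and in 43.9% of the 57 pairs with a mean of 100 or more. Tandem repeats with a unit of up to 6 bp over at least 24 bp were found in 10.4%, 2.87% and 3.01%. The median GC content was 46.3% in pairs and 48.7% in vehicle alone. Near-identical copies elsewhere (90% identity over 80% of the window) were found for 1161 of 2398 pairs (48.4%), and the search may miss copies of repeats.

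Short tandem repeats were frequent at high DNMT3B pileup outside repetitive states. Of the 158 pairs with states 1 to 13 alone and a mean of 25 or more, 90 (57.0%) held such a repeat, against 343 (2.56%) of the 13414 unpaired regions with these states alone. With regions that also carry a repetitive state it was 91 of 225 pairs (40.4%). In enhancer states it was 18 of 54 pairs (33.3%) at a mean of 25 or more, 8 of 241 (3.32%) at a lower mean, and 1.79% of 2633 unpaired regions. Among the study's genes, the enhancer-state windows at PITPNC1, TNNT2, ZP4, RYR2, CUX1 and NLK held such a repeat. Those at LINC00910, DANT2, LOC102724511 and RNVU1-18 did not. At a mean of 25 or more the median ratio was 0.943 with and 0.947 without a tandem repeat, 0.967 with 2 adjacent CATTC units, 0.925 with the CENP-B motif, 0.948 with and 0.943 without a near-identical copy, and between 0.942 and 0.961 over classes of CpG number. Levels were not matched further, and the median mean pileup over all pairs was 51.5 with the CENP-B motif and 20.7 without a tandem repeat.

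OCT1 ChIP of the same cells, with the same rule, gave 8038 pairs with a median ratio of 1.04, and 0.990 in the 1164 with a mean of 25 or more. Of the DNMT3B pairs, 1850 overlapped an OCT1 pair. There the vehicle levels of DNMT3B and OCT1 had a Pearson r of 0.851 on the log2 scale, while the log2 ratios of PTS over vehicle had an r of 0.0434, and of 0.105 in the 824 with a mean of 25 or more. The regions share sequence, mappability and copy number in both experiments. The median OCT1 ratio was 1.02 at the 264 regions where the DNMT3B ratio was 1.2 or more, and 0.967 at the 210 where it was 0.8 or less, with overlapping quartiles of 0.884 and 1.16 and of 0.835 and 1.12. At the CHST3 enhancer OCT1 pileup was 16 in vehicle and 15.83 in PTS, at the LINC01163 region 63 and 58.38, and at the REXO1L2P region 40 and 31.67. At a BAGE2 region OCT1 was higher in PTS, with 21 and 30.68, where DNMT3B had 30 and 17.35. At the FAM30C region OCT1 was higher in vehicle, as DNMT3B was, with 40 and 26.72.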

How the data were processed

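Reads were trimmed (cutadapt), aligned to GRCh37/hg19 (BWA) and cleared of duplicates and low-quality alignments by the authors, who called peaks with MACS2 on 3 pooled replicates (fragments of 200 bp). Genes were added with ChIPseeker, states from the HMEC ChromHMM track. Their versions are not given in the sources used here. The deposited pileup is a coverage signal at each summit, from all fragments of a treatment, in the PTS list times a constant that the sources used here do not describe. Deposited folds and p-values set a peak against a background and were not used.

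Each Peak_ID was counted once, and chromosome X names split over columns were rejoined. Peaks of 13 or more sharing 1 base were joined, and the highest pileup per treatment was divided, PTS over vehicle. Since replicates are pooled, no p-value was computed. Calls were ratios of 1.5 or more, or 0.667 or less. Exact (Clopper-Pearson) 95% intervals treat pileups as reads. Depth per library is unknown, and PCR copies are not independent molecules. Groups follow the sample labels. The members and lists were chosen with earlier results of these data known.

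Regions named are those whose interval excludes 1, the 10 highest by mean pileup, the 10 highest and 10 lowest by ratio, the highest of each state class, the 10 genes with most pairs, the 5 highest unpaired peaks of each list, and gene list members. Summit annotation came from GENCODE 44 lifted to GRCh37, and copies from minimap2 2.31-r1302. Scripts ran in python 3.11.15 with scipy 1.17.1, numpy 2.4.6, pysam 0.24.0, pandas 2.3.3 and matplotlib 3.10.9. Joining and intervals were checked on simulated peaks. That check does not show how well the intervals cover in these data. The SD of the log2 ratio lay below the counting value at every level, with 0.07 against 0.169 at a mean of 100 or more. Both pileups of a ratio had the same summit in 68 of the 2064 pairs with 1 peak of each list. Input libraries and reads were not analysed here.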

Additional observations from a re-analysis of the deposited data

How the results depend on the processing

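No paired analysis was possible because the replicates are pooled in each list, and leaving out a replicate was not possible for the same reason. Of 170 values under alternatives 116 stayed within the interval of the main median or within 1.5 times the main count. That interval comes from ranks and takes regions or genes as independent, which they are not. Some values could not move, such as the 2400 pairs under whole reads, so the 116 is no measure of robustness. Whole reads without the scaling gave a median ratio of 1.08, with 1.12 in states 1 to 13, 1.06 in repetitive states, 1.06 without a state, 1.12 inside genes, 1.06 over 50 kb away and 1.10 per gene. They gave 133 regions at 1.5 or more, 14 at 0.667 or less, 3 intervals above 1 and 1 below. A pileup of 20 or more in both left 1238 pairs with a median of 0.957, 0.957 in states 1 to 13, 0.978 inside genes, 0.950 over 50 kb away and 0.984 per gene, with 4 regions higher, 13 lower and 1 interval below 1. A mean pileup of 25 or more, chosen after seeing the data, left 904 pairs with a median of 0.947, 0.944 in states 1 to 13, 0.948 in repetitive states, 0.947 without a state, 0.948 inside genes, 0.941 over 50 kb away and 0.948 per gene, with 5 higher and 15 lower. Without regions for which a near-identical copy was found, 1236 pairs had a median of 1.02, 0.981 in repetitive states, 1.01 over 50 kb away and 1.02 per gene, with 26 higher, 14 lower and 0 intervals above 1. Satellite repeats for which the search returned 0 copies stay in this set. Without repetitive states the median was 1.01, 1.01 over 50 kb away and 1.02 per gene, with 21 lower and 0 intervals above 1. Ratios divided by their median gave 1.04 in states 1 to 13, 1.03 inside genes, 1.02 per gene and 2 intervals above 1, and a shared 50% of the shorter peak also gave 2. Without the 4 crowded loci the median was 1.01 in states 1 to 13 and 0.993 inside genes. A fold of 5/4 gave 284 higher and 246 lower regions, and a fold of 2 gave 0 and 1. The cause of these shifts was not tested, other than that stricter minimums and exclusions leave fewer regions.

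Depth limits single regions. At the minimum of 13 a ratio has a wide interval, as at CHST3 (0.905 to 3.87), so a change of 1.5-fold was not detectable in most single pairs. Pooled lists cannot show whether a difference recurs between cultures, and a place missing from a list may still have been bound below its first level. Gene and state names are those of the lists, and the states come from HMEC, not from these cells.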
